A study of Mus musculus with 18 samples.

Results

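This comparison set the 3 libraries of embryos given an siRNA against Echs1 and collected at the stage labelled L2C (siEchs1 L2C) against the 3 libraries of embryos given a control siRNA and collected at the stage labelled E2C (siCon E2C). Its members were chosen by the sample titles alone and made up 6 of the 18 libraries of the series. The series concerns histone crotonylation in mouse embryos. Every library came from a tube of 5 to 10 embryos, labelled with the tissue embryo, whose poly(A) RNA was amplified by Smart-seq2, a full-length method for small inputs. The labels used E2C for early 2-cell embryos, did not spell out L2C, and gave no strain, siRNA dose or way of delivery. The siRNA arm held 2 further groups of 3 libraries each, siCon L2C and siEchs1 E2C, which entered the same fit and served as reference points. The other 6 libraries, of embryos treated with crotonate, acetate or DMSO, were not used. The compared groups differed in both siRNA and stage, so the contrast on its own cannot tell these apart. The question was whether knockdown embryos at L2C were still at the early control state, had come to the late control state, or stood in a state that neither control stage showed.

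In mouse, the embryo's own genome is switched on mainly during the 2-cell stage, first with a short burst of transient genes such as the Zscan4 family and then with genes for ribosome assembly, splicing and the cell cycle, while RNA stored in the oocyte is cleared. Echs1 encodes the mitochondrial short-chain enoyl-CoA hydratase, which acts in the breakdown of fatty acids and branched-chain amino acids and can consume crotonyl-CoA. Crotonyl-CoA is the donor for histone crotonylation, a mark linked to active transcription.

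Values were FPKM, fragment numbers scaled by transcript length and by the mapped fragments of the library, so levels of different genes are given per length. FPKM summed to between 1006345 and 1123993 in the siCon E2C libraries and to between 708113 and 729255 in siEchs1 L2C, and 13378 to 13950 and 14096 to 14681 genes respectively reached 1 FPKM. Depth, estimated from the steps between low values, was 16.2 to 18.9 M fragments in siCon E2C and 21.9 to 23.7 M in siEchs1 L2C. That estimate was rough, since 39.2 to 55.6% of low values lay within 0.15 of a whole fragment where 30% would by chance. Nothing in the labels said that replicates came from separate collections, so p-values measure the spread between these tubes. One library stood apart from its group: siEchs1 E2C replicate 3 had a Spearman's rho of 0.662 to 0.705 with the siEchs1 L2C libraries, against 0.772 to 0.865 for siEchs1 E2C replicates 1 and 2. It was not a member of the comparison but shared its estimate of spread, and results that moved by over 1.5 times without it are given both ways. In tubes of whole embryos, fewer cells and less RNA per cell cannot be told apart.

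Knockdown embryos at L2C were no closer to the early controls than the control stages were to each other. Spearman's rho across all kept genes lay between 0.572 and 0.649 for the 9 pairs of a siEchs1 L2C with a siCon E2C library (median 0.612), and between 0.576 and 0.651 for the 9 pairs of siCon L2C with siCon E2C (median 0.634). Against siCon L2C the siEchs1 L2C libraries reached 0.568 to 0.693 (median 0.640), and within siEchs1 L2C rho was 0.908 to 0.937. The 3 late knockdown libraries were thus close to each other and, by overlapping ranges, about equally far from both control stages. Their nearest group was siEchs1 E2C, with a median of 0.811. These correlations run across genes, which are not independent replicates, and the pairs share libraries.

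**Figure D1:**
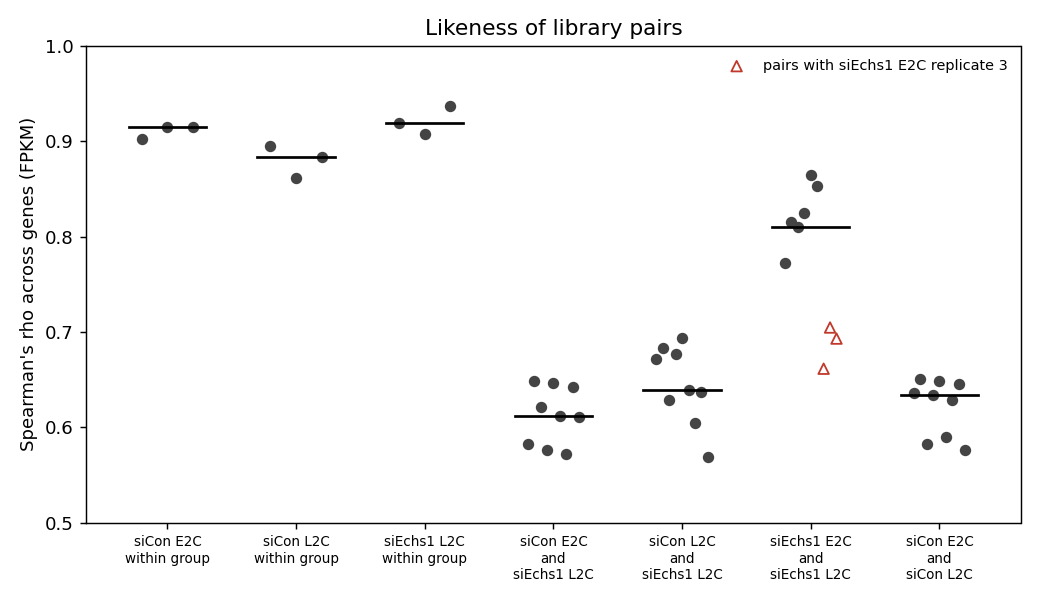
Spearman's rho across genes (vertical axis, no unit) for each pair of libraries, by pair of groups (horizontal axis); each point is 1 pair, open triangles are pairs with siEchs1 E2C replicate 3 and bars are medians. Pairs of siEchs1 L2C with siCon E2C lie between 0.572 and 0.649, in the same span as pairs of the control stages, while pairs within siEchs1 L2C lie above 0.9.

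The targeted gene was low in the knockdown. Echs1, at chr7:140105710-140116476 in mm10, stood at 30.5, 27.5 and 32.5 FPKM in the siCon E2C libraries and at 0.89, 4.32 and 4.25 FPKM in siEchs1 L2C. No siEchs1 L2C library reached the siCon E2C range, and the difference was -3.05 ± 0.52 on the log2(FPKM + 1) scale (SE, 3 against 3 libraries, adjusted p = 0.000492, limma). The siCon L2C libraries stood at 38.6, 39.2 and 24.4 FPKM, and the siEchs1 E2C libraries at 0.71, 5.88 and 3.82, so the knockdown libraries of both stages overlapped (difference -0.03 ± 0.52, adjusted p = 0.979).

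Over all genes, higher levels in the late knockdown were called more often than lower ones. Of 17652 genes tested with limma, 5569 (31.5%) rose and 2779 (15.7%) fell in siEchs1 L2C against siCon E2C at an adjusted p under 0.05, and 5262 (29.8%) and 2554 (14.5%) changed at least 2-fold. The 3 libraries of one group lay all above the 3 of the other for 7575 genes (42.9%) and all below for 4143 (23.5%). The median difference of all genes was 0.36 on the log2 scale. The balance rested on the scaling: rises made up 66.7% of calls as deposited, 49.9% after quantile normalization (4103 higher, 4119 lower, median difference -0.01) and 76.4% after rescaling without mitochondrial transcripts and ribosomal RNA genes (6553 and 2027, median 0.60). Side by side, the control stage change, siCon L2C against the same siCon E2C libraries, had 6326 rises (35.8%) and 2544 falls (14.4%). Against siCon L2C, the late knockdown had 3866 rises (21.9%) and 4745 falls (26.9%).

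Among the 12 largest rises, 5 were tRNA genes of the mitochondrial genome and 4 (Astl, Khdc3, Mos and Zp3) were oocyte genes. Astl encodes ovastacin, the egg protease that hardens the egg coat; it stood at 1.72, 3.06 and 1.90 FPKM in siCon E2C and at 579, 395 and 278 in siEchs1 L2C (log2 difference 6.98 ± 0.75, adjusted p = 2.04e-05). Khdc3, a part of the subcortical maternal complex of the egg, went from 14.8, 5.45 and 14.4 to 1574, 1263 and 1491 FPKM (6.95 ± 1.04, adjusted p = 0.000199). In neither gene did the groups come near each other. In siEchs1 E2C, Astl stood at 71.1, 185.5 and 10.85 FPKM and Khdc3 at 961, 1221 and 28.8. Tubb2b, a beta-tubulin, went from 1.65, 0.70 and 1.96 to 319.5, 154 and 184 FPKM (6.46 ± 0.39, adjusted p = 7.52e-07), and Fam151a from 2.03, 1.63 and 1.99 to 267, 289 and 226 (6.50 ± 0.71, adjusted p = 2.28e-05). Mos, Zp3 and Ddit4 completed the 12 and are described further on. The mitochondrial tRNA genes mt-Ts1, mt-Tq, mt-Tt, mt-Tm and mt-Tp had a listed value of 0 in each siCon E2C library and between 82.3 and 1427 FPKM in siEchs1 L2C. They were also listed at 0 in siCon L2C replicate 1 and high in the other siCon L2C libraries, mt-Ts1 at 0, 4181 and 3742 FPKM, so 1 control library went against its own group there. Such short genes take extreme FPKM values, and no fold is given for them.

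The 12 largest falls held 4 protein genes of the mitochondrial genome, 3 small nucleolar RNAs, the X-linked long non-coding RNA Ftx and Zscan4c. Ftx, which lies beside Xist in the X-inactivation centre at chrX:103560907-103623790, stood at 135, 102 and 92.05 FPKM in siCon E2C, 3.06, 3.86 and 1.45 in siCon L2C and 0.27, 0.27 and 0.15 in siEchs1 L2C. It fell by 6.47 ± 0.34 on the log2 scale against the early control (adjusted p = 2.34e-07) and lay below the late control as well (-1.57, adjusted p = 0.00265). Fcgr3, an Fc receptor best known from macrophages, stood at 105, 109 and 120.4 FPKM in the early controls and 4.65, 4.48 and 1.11 in the late knockdown (-4.80 ± 0.42, adjusted p = 6.77e-06), with 64.6, 53.2 and 72.1 in the late controls. Both genes were thus lower in every late knockdown library than in any control library of either stage. D13Ertd608e showed the same order, with 235, 574 and 341 FPKM in siCon E2C, 149, 175 and 311 in siCon L2C and 8.38, 21.2 and 1.69 in siEchs1 L2C (-5.45 ± 0.86, adjusted p = 0.000283). In siEchs1 E2C, Ftx stood at 0.49, 0.65 and 0.03 FPKM, Fcgr3 at 5.12, 11.9 and 5.18 and D13Ertd608e at 4.45, 40.02 and 55.5. None of these genes was called between the knockdown stages (adjusted p = 0.8315, 0.1508 and 0.2895, limma). The small nucleolar RNA Snora75 had 60.8, 14.04 and 107 FPKM in siCon E2C, was listed at 0 in all siCon L2C libraries and had 0, 0.12 and 0 in siEchs1 L2C, and siEchs1 E2C stood at 0, 0 and 2.69, so all 3 other groups were low there. Dph6, which acts in the synthesis of diphthamide, fell by 4.64 ± 1.28 (adjusted p = 0.0101), with 388, 869.7 and 396 FPKM in siCon E2C and 5.99, 154 and 6.95 in siEchs1 L2C; its call was lost without siEchs1 L2C replicate 1 (adjusted p = 0.0505).

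To place the late knockdown between the control stages, its level was set against the midpoint of the siCon E2C and siCon L2C means, a contrast that is independent of the control stage change by construction. Relative to this midpoint 4842 genes (27.4%) were called higher and 3967 (22.5%) lower. Of the 2897 genes called higher in siCon L2C than in siCon E2C by at least 2 on the log2 scale, 790 (27.3%) were on the early side of the midpoint in siEchs1 L2C, 811 (28%) on the late side, and 1296 were not called on either. Their median control stage change was 2.70 on the log2 scale, and their median difference from siCon E2C in siEchs1 L2C was 1.45. The 984 genes that fell as far in the controls split into 195 (19.8%) on the early side, 305 (31.0%) on the late side and 484 not called, with medians of -2.63 in the controls and -1.56 in the late knockdown. The medians of these genes in the late knockdown lay between those of the control stages. The genes were chosen for control stages far apart, so a median between them says little on where the late knockdown stood. Single genes spread from one side to the other. The even balance of rising genes rested on the setting: it was 558 early and 397 late under quantile normalization, but 782 and 1267 with a pseudocount of 0.1, and 479 and 767 with a mean of at least 5 FPKM. Without siEchs1 L2C replicate 3 it was 496 early and 705 late, and the early side held 118 falling genes; without siEchs1 L2C replicate 2 it held 126.

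**Figure D2:**
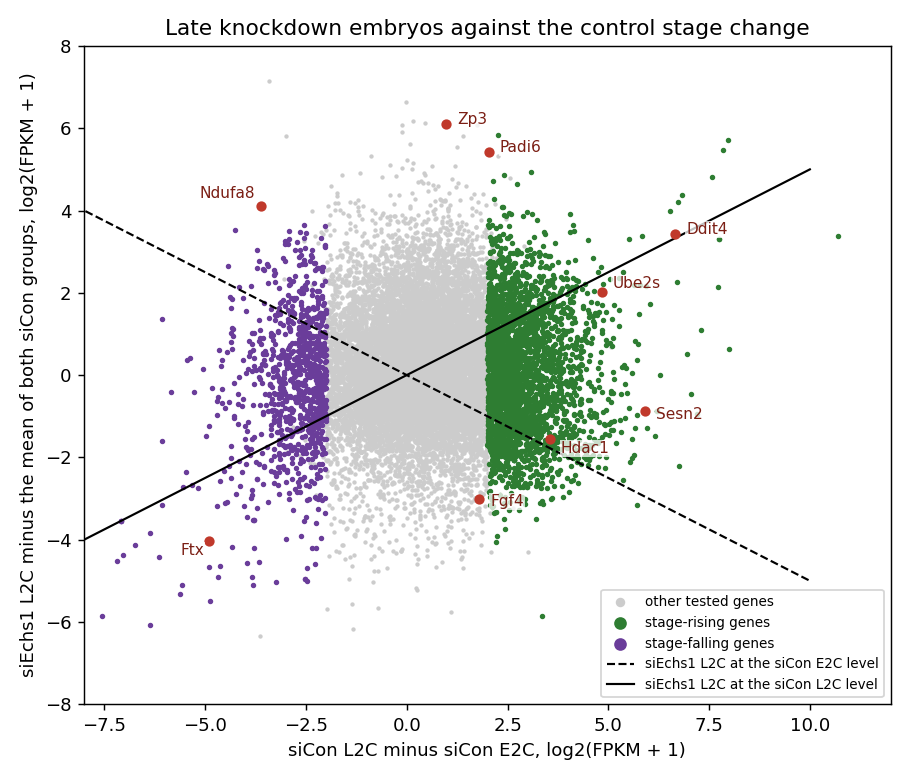
Difference of siEchs1 L2C from the mean of both siCon groups (vertical axis) against the siCon stage change (horizontal axis), both in log2(FPKM + 1) units, for each of 17652 tested genes (points); stage-rising and stage-falling genes are coloured, and named genes are marked. The dashed line is where siEchs1 L2C equals siCon E2C and the solid line where it equals siCon L2C; rising genes lie on both sides of 0 (790 called below, 811 above), and Zp3 and Ndufa8 lie far above both lines.

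The spans of the libraries gave similar shares. For the stage-rising genes the siEchs1 L2C libraries overlapped the siCon E2C span alone in 806 (27.8%, beside 19.3% of all tested genes). They overlapped the siCon L2C span alone in 803 (27.7%, beside 22.6%). For 860 (29.7%, beside 9.69%) they overlapped neither and did not lie beyond them both. For 247 (8.53%) they lay above both and for 111 (3.83%) below both. Of the stage-falling genes, 188 (19.1%) overlapped the early span alone, 306 (31.1%) the late span alone and 306 (31.1%) lay between. Both sets were chosen for control stages far apart, which leaves room between the spans. Their shares therefore cannot be read directly against those of all tested genes. Of all tested genes, 3789 (21.5%) had all siEchs1 L2C libraries above all 6 siCon libraries and 2229 (12.6%) had them below. Of these, 3453 (19.6% of genes tested) and 2057 (11.7%) were also called against the midpoint.

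One promoter is shown for each of 3 positions that the late knockdown took. Ube2s came near the late control level, Usp17lb lay below both control stages, and Zp3 lay above both. The windows run 250 bases before to 50 after the RefSeq start, 5′ to 3′ on the gene's strand, in GRCm38.p6, for Ube2s at chr7:4812291-4812590 (minus strand), Usp17lb at chr7:104842534-104842833 (minus strand) and Zp3 at chr5:135979855-135980154 (plus strand). Capitals mark the TATA motif TATAAA and the GC box GGGCGG on either strand, so a GC box on the opposite strand reads CCGCCC. No match overlaps another.
Ube2s: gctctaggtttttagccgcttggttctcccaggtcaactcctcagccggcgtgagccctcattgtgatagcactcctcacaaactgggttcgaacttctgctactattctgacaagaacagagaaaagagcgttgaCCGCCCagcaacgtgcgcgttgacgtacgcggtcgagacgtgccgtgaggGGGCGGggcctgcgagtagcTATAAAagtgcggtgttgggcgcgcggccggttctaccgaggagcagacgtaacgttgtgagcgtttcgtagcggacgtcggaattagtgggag
Usp17lb: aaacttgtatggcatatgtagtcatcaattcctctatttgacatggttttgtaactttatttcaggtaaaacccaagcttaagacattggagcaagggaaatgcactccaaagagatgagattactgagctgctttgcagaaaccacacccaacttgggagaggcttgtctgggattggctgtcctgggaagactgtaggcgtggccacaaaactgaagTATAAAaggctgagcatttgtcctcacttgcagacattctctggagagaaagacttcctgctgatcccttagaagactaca
Zp3: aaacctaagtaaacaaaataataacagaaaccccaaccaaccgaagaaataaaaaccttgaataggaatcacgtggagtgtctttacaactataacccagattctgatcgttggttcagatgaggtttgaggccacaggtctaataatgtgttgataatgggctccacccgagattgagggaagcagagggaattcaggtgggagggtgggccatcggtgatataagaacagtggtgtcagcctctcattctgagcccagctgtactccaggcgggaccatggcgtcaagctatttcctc
The Ube2s window held 1 TATA motif, beginning at base -44, and 2 GC boxes, at -114 and -64. The Usp17lb window held 1 TATA motif at -31 and 0 GC boxes, and the Zp3 window held 0 of either. Over the windows of all tested genes that had one (11408 of 17652), 7.99% held a TATA motif and 58.5% a GC box. A match is a description of these letters only.

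Some stage-rising genes had reached or come near the late control level. Ube2s, an E2 enzyme of the anaphase-promoting complex, stood at 58.9, 34.8 and 55.5 FPKM in siCon E2C, 1356, 1422 and 1459.9 in siCon L2C and 1118, 1021 and 1101 in siEchs1 L2C, a rise of 4.45 ± 0.41 over the early control (adjusted p = 9.13e-06). Ddit4, an inhibitor of mTORC1 that responds to stress, went from 0.30, 0.77 and 0.77 FPKM to 202, 131 and 190.3 (6.75 ± 0.45, adjusted p = 1.16e-06), and siCon L2C stood at 174, 109 and 220.2. Pou5f1, the pluripotency factor Oct4, went from 30.3, 27.9 and 24.9 to 364, 248 and 287 FPKM (3.38 ± 0.63, adjusted p = 0.000929) beside 449, 405 and 222 in siCon L2C. The Ube2s libraries lay just under the late controls, while in Ddit4 and Pou5f1 the late knockdown and late control libraries overlapped. The glycolytic enzyme Pkm (350.4, 217 and 238 FPKM in siEchs1 L2C against 255, 299 and 218 in siCon L2C and 11.9, 13.2 and 13.5 in siCon E2C) did the same, as did the replication licensing factor Cdt1 and the cell-cycle transcription factor Mybl2. Against siCon L2C the differences of these 6 genes lay between -0.39 and 0.19 on the log2 scale with adjusted p of at least 0.459, which does not show that the levels were equal.

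Other stage-rising genes had not come to the late control level and lay at the early level, between the stages or below both. Hdac1, a histone deacetylase that can also remove crotonyl groups, stood at 13.5, 15.7 and 20.4 FPKM in siCon E2C and 185, 179 and 249 in siCon L2C, but at 20.2, 29.6 and 12.02 in siEchs1 L2C. Its late knockdown libraries overlapped the early controls (difference 0.23 ± 0.41, adjusted p = 0.661) and lay below the midpoint (-1.54 ± 0.35, adjusted p = 0.00355). Sesn2, a stress-induced sestrin, lay between the stages, with 1.38, 1.36 and 1.15 FPKM in siCon E2C, 128, 113 and 181 in siCon L2C and 11.3, 13.4 and 4.11 in siEchs1 L2C; it rose by 2.08 ± 0.50 over the early control (adjusted p = 0.00457) and differed from the late one by -3.84 (adjusted p = 0.000132). Usp17lb, one of a multi-copy family of ubiquitin proteases whose copies share reads, had 55.4, 70.7 and 49.1 FPKM in siCon E2C, 294, 266 and 407 in siCon L2C and 15.4, 22.4 and 8.41 in siEchs1 L2C. It was below both stages (-3.15 ± 0.54 against the midpoint, adjusted p = 0.000575), while its fall against siCon E2C alone (-1.94, adjusted p = 0.0212) was lost in 5 of the alternative settings. Slc19a3, a thiamine transporter, lay farthest below the midpoint of the named stage-rising genes, with 22.6, 33.2 and 18.9 FPKM in siCon E2C, 93.8, 71.6 and 241 in siCon L2C and 1.30, 6.69 and 1.75 in siEchs1 L2C (-3.91 ± 0.58, adjusted p = 0.000269). The homeobox gene Obox8, the non-coding RNA Dancr and the zinc finger gene Yy2 stood at -3.75, -3.35 and -3.17 against the midpoint (adjusted p = 0.000554, 0.0002 and 0.00112); the calls of Obox8 and Yy2 against siCon E2C were lost in 2 and 7 of the alternative settings. The folate receptor gene Folr1 was also below the midpoint (-3.28, adjusted p = 0.00366) but was not called against siCon E2C (adjusted p = 0.0921).

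A further group had gone beyond the late control. U2af2, which recognises the 3′ splice site, stood at 1.93, 2.06 and 2.67 FPKM in siCon E2C, 70.4, 42.2 and 48.2 in siCon L2C and 192, 122 and 129 in siEchs1 L2C (5.51 ± 0.33 against the early control, adjusted p = 7.52e-07; 1.45 against the late control, adjusted p = 0.00354). Padi6, needed for the cytoplasmic lattices of the egg, went from 27.3, 17.8 and 23.1 in siCon E2C and 107, 87.4 and 92.9 in siCon L2C to 2642, 1914 and 1645 in siEchs1 L2C (5.42 ± 0.62 against the midpoint, adjusted p = 5.38e-05). In siEchs1 E2C, Padi6 stood at 499, 945 and 64.2 FPKM, so replicates 1 and 2 were already above the late control and replicate 3 was not. Kcnh3, a potassium channel gene, and Gatd3a stood at 4.87 and 4.71 against the midpoint (adjusted p = 2.91e-05 and 4.01e-06). None of these 4 genes had a siEchs1 L2C library within the range of either control stage.

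**Figure D3:**
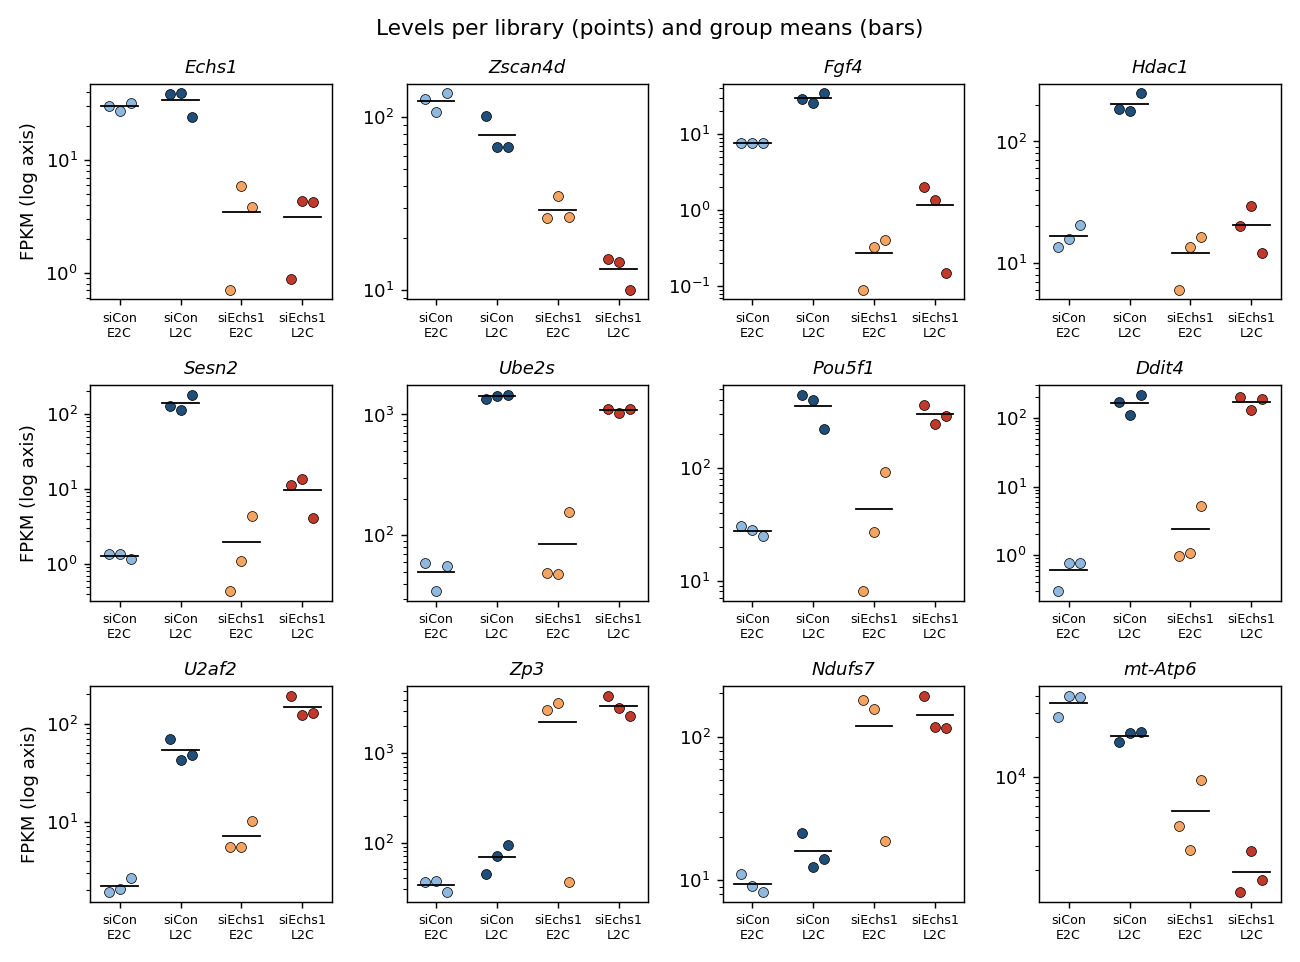
FPKM on a log axis (vertical) in each library (points) of the 4 siRNA groups (horizontal), with group means as bars, for 12 genes. Hdac1 in siEchs1 L2C lies with siCon E2C, Ube2s, Pou5f1 and Ddit4 lie near siCon L2C, and Zscan4d, Fgf4 and mt-Atp6 lie below, and U2af2, Zp3 and Ndufs7 above, all 6 siCon libraries.

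Genes that fall between the control stages also took different places. Obox5, an oocyte and early embryo homeobox gene, fell from 5404, 5114 and 5756 FPKM in siCon E2C to 305, 432 and 555 in siEchs1 L2C (-3.69 ± 0.29, adjusted p = 2.94e-06), still above the 223, 183 and 143 of siCon L2C. Dppa3, a maternal factor that guards DNA methylation in the zygote, fell from 12521, 13963 and 14418 to 2015, 2663 and 2768 FPKM (-2.47 ± 0.28, adjusted p = 2.60e-05) beside 1972, 1925 and 3027 in siCon L2C. Btg4, the adaptor that brings the CCR4-NOT deadenylase to maternal RNA, fell from 6055, 4491 and 5778 to 1190.4, 1279.9 and 1708 FPKM (-1.97 ± 0.38, adjusted p = 0.00114), with 1193, 876 and 379.8 in siCon L2C. The late knockdown and late control libraries overlapped for Dppa3, and for Btg4 they differed by 0.90 (adjusted p = 0.0665). Under quantile normalization the falls of Dppa3 and Btg4 were not called (adjusted p = 0.613 and 0.476). Pan3, a subunit of another deadenylase, went below both stages, from 1199, 924 and 835 FPKM in siCon E2C and 160.0, 183 and 128 in siCon L2C to 49.1, 59.6 and 51.3 in siEchs1 L2C (-2.85 ± 0.31 against the midpoint, adjusted p = 4.42e-05).

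The opposite position, above the early control for a gene that the controls lower, was found as well. Ndufa8, a subunit of respiratory complex I, stood at 25.1, 25.9 and 20.9 FPKM in siCon E2C, 1.39, 1.80 and 0.24 in siCon L2C and 157, 108 and 109 in siEchs1 L2C. It rose over the early control by 2.31 ± 0.61 (adjusted p = 0.0082) and exceeded the midpoint by 4.12 ± 0.53 (adjusted p = 0.000108). Rnaset2b, a lysosomal ribonuclease, had 119, 134 and 157 FPKM in siCon E2C, 19.1, 30.5 and 19.6 in siCon L2C and 781, 627 and 727 in siEchs1 L2C (2.38 ± 0.60 against the early control, adjusted p = 0.0063). Commd1 followed (2.60 ± 0.72, adjusted p = 0.0101). In all 3 of these genes every late knockdown library was above every control library. Their siEchs1 E2C libraries stood at 360, 172 and 40.8 FPKM (Ndufa8), 1369, 1102 and 170.5 (Rnaset2b) and 550, 388 and 40.1 (Commd1). None of the 3 was called between the knockdown stages (adjusted p = 0.905, 0.906 and 0.844, limma). Gtsf1, Igbp1 and Tmem50a lay above all 6 control libraries too, with adjusted p against the early control of 0.0487, 0.0442 and 0.026, calls that were lost in 12, 12 and 7 of the alternative settings.

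Some genes that moved little between the control stages stood far from both of them in the late knockdown. With a control stage change under 1 on the log2 scale, the 8 largest rises against the midpoint were Mos, Gja4, Plat, Zp3, Pabpn1l, Zar1, Figla and Gstt2. Mos, a kinase needed for the meiotic metaphase arrest of the egg, stood at 4.80, 5.89 and 5.96 FPKM in siCon E2C, 4.03, 6.25 and 6.26 in siCon L2C and 683, 589 and 673 in siEchs1 L2C (6.64 ± 1.07 against the midpoint, adjusted p = 0.000414). Zp3, the sperm-binding protein of the egg coat at chr5:135980099-135988624, stood at 36.3, 36.7 and 27.99, 44.8, 70.8 and 93.7 and 4409, 3188 and 2631 FPKM in the same order (6.11 ± 1.10, adjusted p = 0.000815). Every late knockdown library lay far above every control library for both transcripts. Zar1, which stores maternal RNA, had 37.4, 24.8 and 24.99 FPKM in siCon E2C, 24.9, 25.98 and 27.1 in siCon L2C and 2195, 1334 and 1684 in siEchs1 L2C (5.91 ± 0.48, adjusted p = 1.11e-05). The gap-junction gene Gja4 (connexin 37), the tissue plasminogen activator gene Plat and Pabpn1l, a poly(A)-binding protein of the egg, were higher by 6.19, 6.12 and 6.07 (adjusted p = 3.76e-05, 1.59e-05 and 0.000637). Figla, a transcription factor of the growing oocyte, had 0.31, 1.24 and 1.31 FPKM in siCon E2C, 1.67, 1.17 and 0.36 in siCon L2C and 158, 74.2 and 72.6 in siEchs1 L2C (5.63 ± 0.87, adjusted p = 0.000329). The glutathione transferase gene Gstt2 was the eighth, at 5.31 ± 1.23 (adjusted p = 0.00375).

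In siEchs1 E2C, Mos and Zp3 split by library. Mos stood there at 676, 808 and 7.70 FPKM and Zp3 at 3071, 3622 and 35.9, so replicates 1 and 2 resembled the late knockdown and replicate 3 the controls. Zar1 stood there at 334, 670 and 89.1 FPKM, above every control library. Of the 8 rises against the midpoint, Plat and Zar1 were called higher in siEchs1 L2C than in siEchs1 E2C (adjusted p = 0.0184 and 0.00841, limma). The others were not (adjusted p of at least 0.05546). Gdf9, the oocyte growth factor, was also high in siEchs1 L2C, at 5704, 3861 and 3702 FPKM against 207, 179 and 196 in siCon E2C (4.48 ± 0.67, adjusted p = 0.000198). Not every oocyte transcript was called higher. Bmp15, a partner of Gdf9 that was chosen as an example after its values were seen, had 1018, 768 and 779 FPKM in siCon E2C and 634, 872 and 782 in siEchs1 L2C, with overlapping groups (difference -0.16, adjusted p = 0.709).

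The 8 largest falls against the midpoint among genes with a small control stage change were D13Ertd608e, Mt2, Fcgr3, Bex6, Pglyrp1, Mfap5, Gcsh and Rbm8a2. Mt2, a metallothionein that buffers zinc, stood at 266, 518 and 492 FPKM in siCon E2C, 308, 478 and 834 in siCon L2C and 17.6, 31.9 and 12.7 in siEchs1 L2C (-4.47 ± 0.48, adjusted p = 3.90e-05). Gcsh, the H protein of the glycine cleavage system, stood at 215, 314 and 223, 259, 281 and 933 and 19.7, 32.4 and 8.80 FPKM in the same order (-4.07 ± 0.56, adjusted p = 0.000159). For both genes all late knockdown libraries lay far below all control libraries. Bex6, Pglyrp1 (a peptidoglycan recognition protein) and Mfap5 (a microfibril protein) stood at -4.28, -4.13 and -4.11 (adjusted p = 0.000232, 0.000272 and 0.000349). Rbm8a2 is a near copy of the exon junction gene Rbm8a, and its reads may be shared (-3.96 ± 0.39, adjusted p = 2.26e-05). In siEchs1 E2C, Mt2 stood at 24.1, 39.95 and 107 FPKM and Gcsh at 12.2, 23.65 and 67.4. None of the 8 genes was called between siEchs1 L2C and siEchs1 E2C (adjusted p of at least 0.1508, limma), which does not show equal levels.

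Gene lists grouped the changes by function. Each count against siCon E2C is to be read against 31.5% higher and 15.7% lower of all tested genes and their median of 0.36. Counts against the midpoint are to be read against 27.4% higher and 22.5% lower. Counts outside all 6 control libraries are to be read against 21.5% above and 12.6% below. A list's median weighs every gene alike, and its summed FPKM can move the other way. The 2-cell transient list stood out on the low side: 30 of its 57 measured genes (63 listed) fell and 3 rose (5 rose without siEchs1 E2C replicate 3), with a median of -1.25, while the control stage change had a median of 0.96. Against the midpoint 40 fell (22.5% of all genes did) and 4 rose (7 without siEchs1 E2C replicate 3), and 28 lay below all 6 control libraries (12.6% of all genes did). Zscan4d, at chr7:11161374-11166159, stood at 128, 107 and 137 FPKM in siCon E2C, 102, 67.2 and 67.03 in siCon L2C and 15.2, 14.6 and 10.1 in siEchs1 L2C (-3.14 ± 0.30, adjusted p = 9.91e-06). Zscan4c had 152, 118 and 131 FPKM in siCon E2C and 13, 1.66 and 0.52 in siEchs1 L2C (-5.13 ± 0.69, adjusted p = 9.31e-05). Copies of Zscan4, Obox, Tdpoz and Usp17l share reads, so values of single copies are uncertain. Zfp352, a zinc finger gene of the 2-cell stage, went from 117, 148 and 135 to 6.52, 15.9 and 10.6 FPKM (-3.55 ± 0.52, adjusted p = 0.000175), and siCon L2C stood at 148, 209.8 and 204. Obox6 fell by 3.60 ± 0.70 (adjusted p = 0.00113) and Tcstv3 by 3.32 ± 0.40 (adjusted p = 4.15e-05), both below both stages. Duxf3, the mouse Dux gene that acts upstream of this programme, was not called, with 0.33, 0.54 and 0.42 FPKM in siCon E2C and 0.78, 0.19 and 1.92 in siEchs1 L2C (adjusted p = 0.692). Markers of the labelled 2-cell stage such as Zscan4c, Zscan4d and Zfp352 were thus detected in the late knockdown, at lower levels than in either control stage.

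**Figure D4:**
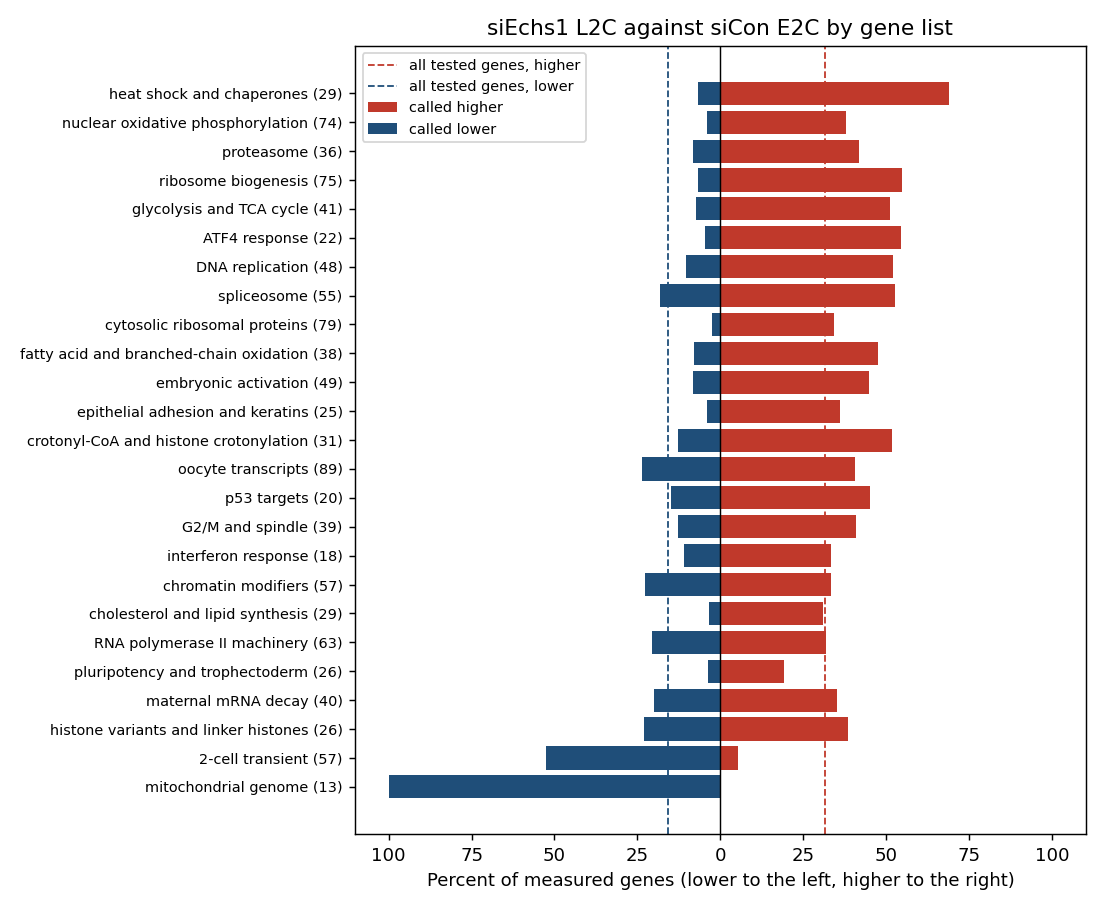
Percent of the measured genes of each list (vertical axis, number measured in brackets) called higher (to the right) or lower (to the left) in siEchs1 L2C against siCon E2C; dashed lines are the 31.5% higher and 15.7% lower of all tested genes. The 2-cell transient list and the mitochondrial genome lean to the left, with 30 of 57 and 13 of 13 genes lower.

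Oocyte transcripts changed in both directions. Of 89 measured, 36 rose and 21 fell, and against the midpoint 50 rose (27.4% of all genes did) and 15 fell, with 41 above all 6 control libraries (21.5% of all genes were). The list's median was 0.89 in the late knockdown and -0.95 in the late control. Among the falls with the smallest adjusted p, Omt2b went from 34093, 35365 and 36604 to 1848, 2021 and 2231 FPKM (-4.12 ± 0.32, adjusted p = 2.87e-06) and Tcl1b3 from 2964, 2369.9 and 2278 to 308, 247 and 297 (-3.15 ± 0.28, adjusted p = 6.77e-06), both below both control stages. Omt2a and Omt2b share reads. Igf2bp2, an RNA-binding protein, rose from 14.6, 16.4 and 13.8 to 116, 127 and 144 FPKM (3.03 ± 0.27, adjusted p = 6.77e-06). Of 40 genes of maternal RNA decay, 14 rose and 8 fell, and the list's median of 0.30 turned to -0.31 under quantile normalization; the falls numbered 5 without siCon E2C replicate 1 and without siEchs1 L2C replicate 1. The sum of this list was 6832 to 8859 FPKM in siCon E2C, 1986 to 3227 in siCon L2C and 3778 to 4603 in siEchs1 L2C. Cnot11, a subunit of the CCR4-NOT deadenylase, stood at 12.5, 9.07 and 12.9 FPKM in siCon E2C, 14.4, 13.1 and 6.82 in siCon L2C and 136, 147 and 194 in siEchs1 L2C (3.68 ± 0.32, adjusted p = 6.90e-06), and Cnot3 and the decapping scaffold gene Edc4 rose by 4.03 and 3.31.

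The mitochondrial and the nuclear gene lists of respiration had medians of opposite sign against siCon E2C. All 13 protein genes of the mitochondrial genome fell against siCon E2C, with a median of -4.37 (-3.54 after quantile normalization), and all 13 lay below all 6 control libraries. The share of FPKM on mitochondrial transcripts was 13.1 to 17.0% in siCon E2C and 0.831 to 2.27% in siEchs1 L2C. It was 7.58 to 11.2% in siCon L2C and 2.82, 1.69 and 10.3% in the siEchs1 E2C libraries. mt-Atp6, a subunit of ATP synthase, had 27987, 40468 and 39574 FPKM in siCon E2C, 18064, 21127 and 21585 in siCon L2C and 1364, 2754 and 1669 in siEchs1 L2C (-4.27 ± 0.41, adjusted p = 1.07e-05). mt-Cytb fell by 5.37 ± 0.47 and mt-Nd1 by 5.72 ± 0.62 (adjusted p = 6.55e-06 and 2.22e-05). Of 74 nuclear genes of oxidative phosphorylation, 28 rose (37.8%, beside 31.5% of all genes) and 3 fell (4.05%, beside 15.7%). Their median was 1.29, against -0.89 in the control stage change. Relative to the midpoint 43 rose and 2 fell (27.4% and 22.5% of all genes did). Above all 6 control libraries lay 47 (21.5% of all genes did). The 43 midpoint rises became 26 and 27 without siEchs1 L2C replicates 1 and 2, and the 2 falls became 1 without siCon E2C replicate 2 or 3, siCon L2C replicate 1 or 3, or siEchs1 L2C replicate 2 or 3. Without siEchs1 E2C replicate 3 the counts against siCon E2C were 51 and 9, and without siCon E2C replicate 3 there were 18 rises. Ndufs7, a core subunit of complex I, had 11.1, 9.14 and 8.29 FPKM in siCon E2C, 21.5, 12.4 and 13.97 in siCon L2C and 193, 117 and 114 in siEchs1 L2C (3.72 ± 0.66, adjusted p = 0.000632), and the ATP synthase genes Atp5a1 and Atp5d rose by 3.22 and 3.76. Cox8a went the other way, from 3114, 3146 and 3339 to 665, 676 and 659 FPKM (-2.26 ± 0.33, adjusted p = 0.000168).

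Among enzymes of metabolism and of crotonyl-CoA, rises outnumbered falls, as they did among all tested genes (5569 against 2779). Of 38 measured genes of fatty acid and branched-chain oxidation, 18 rose (9 under quantile normalization) and 3 fell, Echs1 among the latter. Bckdha, of the branched-chain ketoacid dehydrogenase, went from 0.14, 0.08 and 0.13 to 17.4, 11.7 and 10.2 FPKM (3.63 ± 0.47, adjusted p = 6.95e-05), with 3.38, 7.36 and 4.18 in siCon L2C. Gcdh, glutaryl-CoA dehydrogenase, which produces crotonyl-CoA, went from 2.15, 1.55 and 3.35 to 30.6, 17.9 and 16.2 FPKM (2.74 ± 0.36, adjusted p = 7.95e-05) and overlapped siCon L2C at 22.7, 17.3 and 20.1. Of 31 genes of crotonyl-CoA and histone crotonylation, 16 rose and 4 fell (7 fell without siEchs1 E2C replicate 3). Under quantile normalization 12 rose and 5 fell. Members of this list act in opposite ways. The acetyltransferase genes Kat5 and Kat2a rose by 3.32 ± 0.31 and 2.94 ± 0.29 (adjusted p = 9.42e-06 and 1.16e-05), and the deacetylase gene Hdac3 by 3.49 ± 0.34 (adjusted p = 1.06e-05). Acss2, which can make crotonyl-CoA from crotonate, was not called, with 0.77, 0.61 and 0.17 FPKM in siCon E2C and 2.90, 0.78 and 1.05 in siEchs1 L2C (adjusted p = 0.204). Of 41 genes of glycolysis and the TCA cycle, 21 rose and 3 fell (1 fell without siCon E2C replicate 1). These counts were 14 and 5 under quantile normalization. Dlst, of the 2-oxoglutarate dehydrogenase complex, rose by 3.08 ± 0.39 (adjusted p = 6.55e-05). Of 29 genes of cholesterol and lipid synthesis, 9 rose, a share close to the background, and 1 fell (2 without siEchs1 E2C replicate 3 or siCon E2C replicate 1). Srebf1, the transcription factor of lipid synthesis, stood at 8.53, 1.97 and 3.59 FPKM in siCon E2C, 4.78, 5.53 and 4.46 in siCon L2C and 89.3, 60.4 and 60.7 in siEchs1 L2C (3.79 ± 0.44, adjusted p = 3.39e-05).

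Of the lists of genes that the embryo switches on, embryonic activation and ribosome biogenesis had smaller median changes than in the late control. Of 49 genes of embryonic activation, 22 rose and 4 fell, with a median of 0.97 where the late control had 2.00, and against the midpoint 13 rose (8 without siEchs1 L2C replicate 3) and 12 fell. Eif4a1, a translation initiation helicase, went from 129, 101 and 111 to 558, 527 and 452 FPKM (2.16 ± 0.28, adjusted p = 6.33e-05), within reach of the 442, 384 and 544 of siCon L2C. Of 75 ribosome biogenesis genes 41 rose and 5 fell, with a median of 1.21 against 1.99 in the late control (29 and 7 under quantile normalization). Noc2l and Ddx56, 2 such factors, rose by 3.46 ± 0.43 and 3.58 ± 0.45 and overlapped the late controls, while Noc4l rose by 4.44 ± 0.51 and exceeded them (200.2, 152 and 146 FPKM against 32.6, 32.1 and 38.5). Of 79 cytosolic ribosomal protein genes, 27 rose, a share near the background, and 2 fell, with a median of 1.05 against 1.06 in the late control. The falls were 0 or 1 without siCon E2C replicate 2 or 3 or any one siEchs1 L2C library, and the rises numbered 44 without siEchs1 E2C replicate 3, 13 without siCon E2C replicate 1, 15 without siCon E2C replicate 3, and 14 and 15 without siEchs1 L2C replicates 2 and 3. Rpl8 went from 35.4, 39.9 and 33.95 to 194, 170.3 and 147 FPKM (2.19 ± 0.26, adjusted p = 4.51e-05), short of the 290.4, 384 and 382 of siCon L2C.

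Of 55 spliceosome genes 29 rose and 10 fell, with a median of 1.07 against 0.87 in the late control. Sf3a2, of the U2 snRNP, went from 0.20, 0.22 and 0.93 to 67.1, 51.6 and 55.9 FPKM (5.38 ± 0.36, adjusted p = 1.38e-06), past the 16.8, 9.88 and 11.3 of siCon L2C, and Sf3b4 and Eftud2 rose by 4.94 and 3.58. Of 63 genes of the RNA polymerase II machinery 20 rose (11 under quantile normalization) and 13 fell, and the falls were unstable, at 6 to 8 when any of the 6 compared libraries was left out. Gtf2a2, of TFIIA, fell from 764, 652 and 817 to 67.1, 74.01 and 83.6 FPKM (-3.29 ± 0.34, adjusted p = 1.70e-05), and Polr2f, a shared polymerase subunit, fell by 2.84. Of 36 proteasome genes 15 rose and 3 fell, with 27 rises without siEchs1 E2C replicate 3 and 1 fall without siCon E2C replicate 1 or 3 or any one siEchs1 L2C library. Psmd8 went from 28.4, 27.7 and 27.4 to 214, 195 and 181 FPKM (2.78 ± 0.34, adjusted p = 4.84e-05), and Psme4, an activator cap, fell by 2.71 ± 0.49 (adjusted p = 0.000729).

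Replication and chaperone genes had more rises than falls, as all tested genes did. In DNA replication 25 of 48 genes rose, 5 fell and 15 lay above all 6 control libraries (21.5% of all genes did). Rpa1, which binds single-stranded DNA, went from 13.4, 7.92 and 10.4 to 183, 183 and 164 FPKM (3.96 ± 0.38, adjusted p = 1.00e-05), with 36.7, 25.7 and 12.2 in siCon L2C, and Fen1 and Mcm5 rose by 3.92 and 3.15. Of 39 genes of G2/M and the spindle 16 rose and 5 fell, with 2 or 3 falls without any one siCon E2C library or siEchs1 L2C replicate 1. Fzr1, an activator of the anaphase-promoting complex, had 5.75, 5.55 and 4.85 FPKM in siCon E2C, 15.9, 26.5 and 18.4 in siCon L2C and 179, 112 and 135 in siEchs1 L2C (4.46 ± 0.31, adjusted p = 1.59e-06); Cdc25a and Plk1 rose by 3.40 and 3.92. The heat shock and chaperone list had the highest share of rises of the 29 lists, with 20 of 29 genes and 2 falls (1 without siCon E2C replicate 1 or 3 or siEchs1 L2C replicate 3), and 15 members lay above all 6 control libraries. Dnajb1, an Hsp40 co-chaperone, went from 18.3, 21.97 and 16.97 to 119, 92.7 and 112 FPKM (2.44 ± 0.28, adjusted p = 2.99e-05), beside 53.8, 42.6 and 58.7 in siCon L2C. Hspa5, the chaperone BiP of the endoplasmic reticulum, rose by 3.12 ± 0.32 and mitochondrial Hspa9 by 2.00 ± 0.26 (adjusted p = 1.72e-05 and 7.73e-05).

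Of the stress lists, 12 of 22 ATF4 response genes rose and 1 fell, and 9 of 20 p53 targets rose (4 under quantile normalization) and 3 fell. Against the midpoint the p53 targets had 3 rises and 7 falls (4 without siEchs1 L2C replicate 2), with a median of -0.54, and 0 of the 20 lay above all 6 control libraries. The tRNA synthetase genes Wars and Sars rose by 3.63 ± 0.40 and 2.27 ± 0.38 (adjusted p = 2.31e-05 and 0.000416) and exceeded both control stages, and the amino acid transporter gene Slc7a5 went from 0.74, 1.28 and 0.93 to 24.3, 19.3 and 15.9 FPKM, beside 47.2, 29.4 and 30.1 in siCon L2C. Bax, the pore-forming Bcl2 family member, rose by 1.82 ± 0.33 and Aen, a nuclease, by 2.15 ± 0.38 (adjusted p = 0.000732 and 0.000614). Of 18 interferon response genes 6 rose and 2 fell. The oocyte-expressed paralogs Oas1c and Oas1d, which share reads, rose by 2.66 and 3.03, and Ifi35 went from 13.7, 14.3 and 10.8 to 1.86, 2.71 and 0.27 FPKM (-2.54 ± 0.45, adjusted p = 0.000625), below both stages.

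Histone and chromatin genes were divided. Of 26 genes of histone variants and linker histones 10 rose and 6 fell, and of 57 chromatin modifiers 19 rose (11 under quantile normalization) and 13 fell; both medians, 0.11 and 0.41, turned to -0.03 and -0.09 under quantile normalization. H2afx, the variant phosphorylated at DNA breaks, went from 5.50, 5.69 and 4.23 to 152, 146 and 152 FPKM (4.63 ± 0.45, adjusted p = 1.14e-05), while H3f3a, for histone H3.3, fell from 1753, 2129 and 2361 to 399, 449 and 491 (-2.21 ± 0.26, adjusted p = 4.20e-05). Cbx3, for the heterochromatin protein HP1 gamma, fell from 166, 307 and 177 to 9.02, 17.8 and 4.52 FPKM (-4.37 ± 0.51, adjusted p = 3.68e-05), below the 91.8, 94.4 and 179 of siCon L2C. Of the chromatin modifiers, 17 lay below all 6 control libraries (12.6% of all genes did) and 9 above. The de novo methyltransferase gene Dnmt3a rose by 2.33 ± 0.28 (adjusted p = 4.88e-05).

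Lineage genes were called least often among the pathway lists. Of 26 measured genes of pluripotency and trophectoderm 5 rose and 1 fell, with a median of 0.32 where the late control had 2.20, and against the midpoint 3 rose and 8 fell. The 5 rises became 2 without siEchs1 L2C replicate 1 and 3 without any one siCon E2C library, and the 3 midpoint rises became 1 without siCon E2C replicate 3, siCon L2C replicate 3, or siEchs1 L2C replicate 1 or 2. Fgf4, a growth factor of the inner cell mass, stood at 7.75, 7.61 and 7.76 FPKM in siCon E2C, 28.7, 25.8 and 34.3 in siCon L2C and 2.02, 1.36 and 0.15 in siEchs1 L2C (-2.11 ± 0.36, adjusted p = 0.000509), below both stages. Esrrb, a nuclear receptor of pluripotent cells, had 15.04, 13.3 and 12.8 FPKM in siCon E2C, 16.4, 13.4 and 16.9 in siCon L2C and 297, 103 and 125 in siEchs1 L2C (3.43 ± 0.99, adjusted p = 0.0128); the call was lost without siEchs1 L2C replicate 1 (adjusted p = 0.0564). Lin28a rose by 2.93 ± 0.46 (adjusted p = 0.000258) and overlapped the late control. Nanog was under 1 FPKM in both compared groups (adjusted p = 0.648). Of 25 genes of epithelial adhesion and keratins 9 rose and 1 fell (2 without siEchs1 E2C replicate 3 or siEchs1 L2C replicate 2). Cdh1, for E-cadherin, went from 3.21, 1.97 and 3.18 to 26.4, 27.96 and 39.4 FPKM (3.09 ± 0.38, adjusted p = 5.10e-05), beside 27.6, 18.8 and 15.5 in siCon L2C, and Krt18 was not called, with 8.81, 0.19 and 1.12 FPKM in siEchs1 L2C (adjusted p = 0.43).

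**Figure D5:**
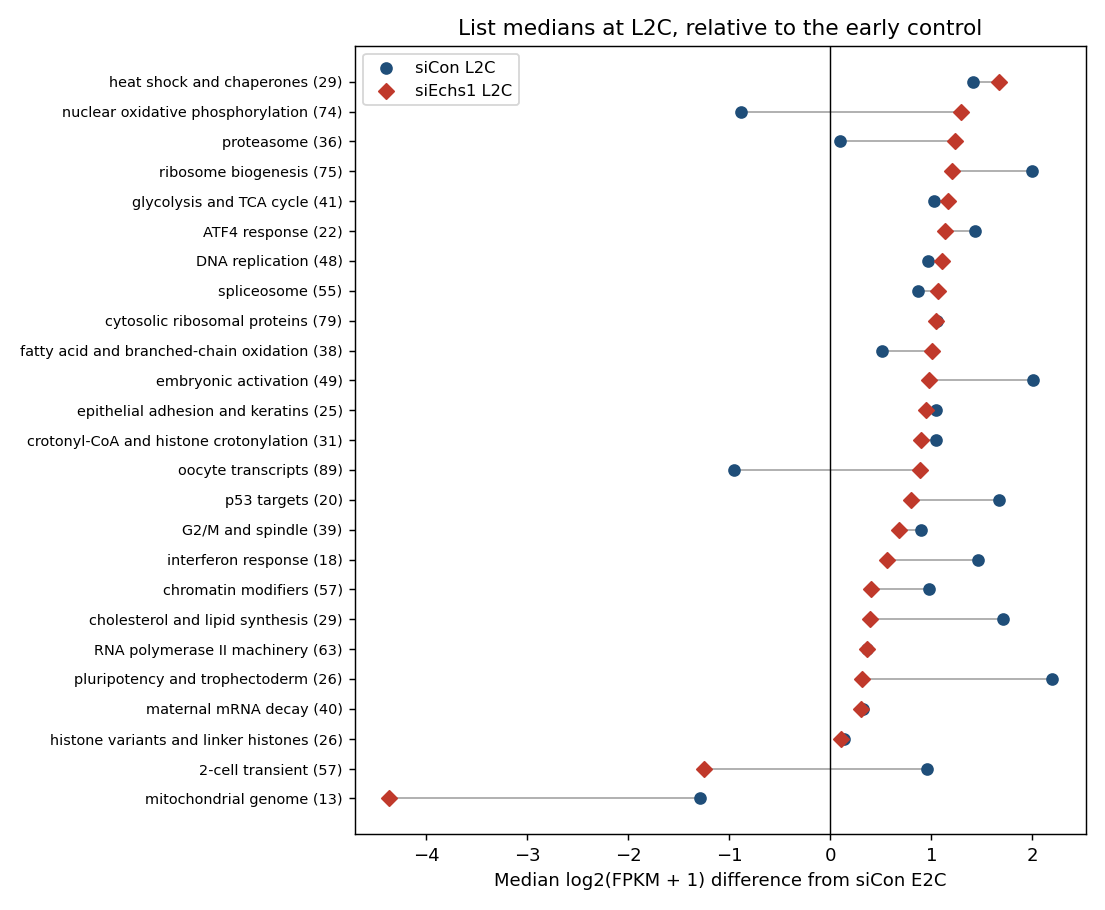
Median log2(FPKM + 1) difference from siCon E2C (horizontal axis) of each gene list (vertical axis, number measured in brackets) in siCon L2C (blue circles) and in siEchs1 L2C (red diamonds). The late knockdown falls short of the late control for embryonic activation (0.97 against 2.00) and pluripotency (0.32 against 2.20), and lies on the other side of 0 for the 2-cell transient, oocyte and nuclear oxidative phosphorylation lists.

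Few markers of other cells that a tube could hold passed the filter on low values. Of those that did, 0 were called higher (1 sperm and testis marker was without siEchs1 E2C replicate 3). The sums below run over all listed markers, also those under the filter. These were 13 of blood, 12 of oviduct epithelium, 16 of sperm and testis and 16 of cumulus and granulosa. Of the blood markers 4 of 4 measured fell. The blood sum was 67.5 to 85.1 FPKM in siCon E2C, 101 to 137 in siCon L2C and 4.53 to 20.9 in siEchs1 L2C. Fcgr3 fell alongside the blood markers, and their part in that result was not tested. Of 3 oviduct epithelium markers measured 2 fell (1 without any one siCon library other than siCon L2C replicate 3, and 0 without siEchs1 L2C replicate 1 or 3). The oviduct sum was 23.9 to 27.4 FPKM in siCon E2C, 111 to 181 in siCon L2C and 3.82 to 22.1 in siEchs1 L2C. Of 6 sperm and testis markers measured 3 fell, Smcp to a listed 0 in all siEchs1 L2C libraries. The sperm and testis sum was 88.1 to 127 FPKM in siCon E2C, 60.35 to 109 in siCon L2C and 104 to 135 in siEchs1 L2C. Of 3 cumulus and granulosa markers measured 1 fell (0 without siCon E2C replicate 1 or 3 or siEchs1 L2C replicate 3). The cumulus and granulosa sum was 8.55 to 14.6 FPKM in siCon E2C, 101 to 149 in siCon L2C and 12.6 to 18.9 in siEchs1 L2C. The part of follicle cells in the high oocyte transcripts was not tested beyond these sums.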

How the data were processed

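Poly(A) RNA of mouse embryos was sequenced in 18 libraries, of which the 12 siRNA libraries were analysed. The authors deposited 1 table per library with an FPKM value for each of 55335 rows. The submitters' processing notes name cutadapt 1.16, STAR and the mm10 build; the counter, the annotation and any use of strand were not given in the sources used here. Reads of near-identical copies or of overlapping genes may therefore be shared. Groups and replicate numbers came from the sample titles. The file headers of siEchs1 L2C replicates 2 and 3 carried each other's number.

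Rows with symbols turned into dates (27) and symbols listed more than once (104 symbols, 210 rows) were left out, which kept 55098 genes. Coordinates came from GENCODE M21 on mm10, which held 53430 of them. The 17652 genes that reached 1 FPKM in 3 or more of the 12 libraries were tested on log2(FPKM + 1) with limma 3.58.1 in R 4.3.3, with a robust trend over all 4 groups and Benjamini-Hochberg adjustment; calls needed an adjusted p under 0.05. A gene that passes this filter only in the group where it is high had to differ, and genes under the filter were not counted. A fold on this scale understates the change of low genes. FPKM values carry no count, so no count model was fitted. The script was tested on simulated data.

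Named genes were Echs1, the 12 largest called rises and falls without overlap and with at least 5 FPKM in the higher group, the 8 largest on each side outside all 6 siCon libraries with a stage change under 1, 6 on each side of the midpoint among stage-rising and stage-falling genes, up to 4 called genes with the smallest adjusted p of each of 29 lists, and 21 genes chosen for their role. Predicted genes, pseudogenes and microRNAs were not eligible, and not all eligible genes are printed; 1 is not reported here. The groups compared and the lists were chosen with earlier results of these data known. Alternatives were another pseudocount, other filters, quantile normalization, rescaling without mitochondrial and ribosomal RNA genes, protein-coding genes alone, the compared groups alone, a replicate block and each library left out. Promoter windows were from RefSeq (GRCm38.p6). Only 64.6% of tested genes had one, so a comparison of motifs between gene sets was void.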

Additional observations from a re-analysis of the deposited data

How the results depend on the processing

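Against the early control the rises and falls kept within 1.5 times of 5569 and 2779 under the settings tried, except that the falls numbered 1845 with a mean of at least 5 FPKM and 1749 among protein-coding genes. Leaving out 1 library gave 4555 to 6641 rises and 2139 to 3402 falls; against the midpoint it gave 3803 to 5884 rises and 2756 to 4636 falls. The highest of each of these 4 counts came without siEchs1 E2C replicate 3. Against the midpoint 2226 fell with a mean of at least 5 FPKM. Stage-rising genes on the early side numbered 479 with that mean, 1625 with a stage change of at least 1, and 496 (without siEchs1 L2C replicate 3) to 893 with 1 library left out. Those on the late side numbered 1267 with a pseudocount of 0.1, 397 under quantile normalization, 1614 with a stage change of at least 1, and 596 to 956 with 1 library left out. Stage-falling genes on the early side numbered 303, 379 and 483 under the same 3 settings, 118 and 126 without siEchs1 L2C replicates 3 and 2, and up to 282. Those on the late side numbered 499 under quantile normalization, 198 after rescaling, 138 among protein-coding genes, 640 with a stage change of at least 1, and 250 to 338 with 1 library left out. The cause of these changes was not tested. Echs1 ranged from -3.30 to -2.56 with 1 library left out. Of the values of single named genes, 3994 kept their direction and side of the threshold, 59 lost the threshold and 3 gained it, and 0 reversed.

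Replicate numbers did not pair the samples: same-numbered siCon E2C and siEchs1 L2C libraries had correlations of 0.0066, 0.0411 and -0.0016 over genes. With the file header numbers, the deviations of same-numbered siCon L2C and siEchs1 L2C libraries had correlations of 0.1112, 0.0875 and 0.2237. Other pairs had at most 0.0169, so each correlated best with its own number, a hint from the data and not from the design. With the replicate number as a block, 5404 genes rose and 2666 fell, and with the header numbers 5416 and 2697 (4690 and 3798 against the midpoint). Depth was known only roughly, so no limit from counting error is given for low genes.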

Other observations

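Snora3 and Snora81, small nucleolar RNA genes named for the size of their fall, were low in every group other than siCon E2C. Snora3 had 32.03, 32.1 and 56.7 FPKM in siCon E2C, 0, 0 and 3.26 in siEchs1 E2C, 3.56, 11.6 and 4.43 in siCon L2C and 0, 1.72 and 0 in siEchs1 L2C (-4.83 ± 0.62 against the early control, adjusted p = 6.69e-05). Snora81 had 30.9, 42.03 and 86.9 FPKM in siCon E2C, 4.48, 0 and 3.87 in siEchs1 E2C, 6.40, 6.12 and 0 in siCon L2C and 0, 0.09 and 1.81 in siEchs1 L2C (-5.09 ± 0.83, adjusted p = 0.000357). Both are short and not polyadenylated in their mature form, and without strand their reads cannot be told apart from those of the host gene.

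Among blood markers, the hemoglobin gene Hba-a2 had 50.8, 32.5 and 21.3 FPKM in siCon E2C, 18.97, 19.96 and 18.3 in siCon L2C and 5.96, 2.03 and 0 in siEchs1 L2C, and the lysozyme gene Lyz2 had 4.50, 4.37 and 3.28, 3.38, 1.36 and 0.26 and 0.09, 0.09 and 0.33 FPKM in the same order (-3.62 ± 0.57 and -2.11 ± 0.41 against the early control, adjusted p = 0.000288 and 0.00121). The call of Hba-a1, a near copy of Hba-a2, was lost in 4 of the alternative settings.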
